A study of Homo sapiens with 6 samples.

Results

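The genes described here are BHLHE40, a transcriptional repressor whose transcript was among the largest rises after treatment, and 9 genes of the circadian clock: BHLHE41, PER1, PER2, PER3, CRY1, CRY2, NR1D1, NR1D2 and CLOCK. They are 10 of 19777 genes that had a probe set with 1 gene symbol or were among these 10. Every probe set whose annotation is, or lists, one of the 10 was taken, which gave 27 probe sets. RNA came from MOLM-14, a human acute myeloid leukaemia cell line with an MLL-AF9 rearrangement. The CA group had 3 samples treated for 3 h with cortistatin A (CA) at 25 nM, and the DMSO group had 3 samples kept for 3 h with dimethyl sulfoxide, a solvent. CA is a steroidal inhibitor of CDK8 and CDK19, the kinases of the Mediator complex. RNA of each sample went onto 1 Affymetrix U133 Plus 2.0 array. All samples are of 1 cell line plated in triplicate in wells. No separate cultures are named in the labels, so the spread between samples may be technical. RNA was isolated with either a Qiagen column kit or TRIzol, and which served which sample is not stated, so a difference in reagent between the groups was not tested. No step that sets cell clocks to a common phase is named either, and a single time of sampling shows no rhythm.

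The clock of mammalian cells is a loop of transcription. CLOCK and its partner BMAL1 bind short DNA elements called E-boxes and activate the PER and CRY genes, whose proteins return to the nucleus and hold CLOCK and BMAL1 back. In a second loop the nuclear receptors NR1D1 and NR1D2, also known as REV-ERB alpha and beta, repress BMAL1. BHLHE40 and BHLHE41, also known as DEC1 and DEC2, are basic helix-loop-helix repressors that bind E-boxes themselves, act on genes that CLOCK and BMAL1 activate, and are E-box targets in turn. BHLHE40 also responds to many signals outside the clock, such as hypoxia, cytokines and serum.

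The sequences before the gene starts are shown because several of these genes are known to be controlled through E-boxes, D-boxes or nuclear receptor elements. RefSeq windows of 250 bases before a start (GRCh38.p14) were found for all 10 genes, with 2 starts for each of 4 genes (PER3, CRY2, NR1D2 and CLOCK), which makes 14 windows. Starts of a gene are numbered by position on the chromosome, and the windows of the PER3 starts overlap. The windows below hold the CACGTG E-box, and capitals mark the motif matches. The BHLHE40 window is chr3:4979187-4979436 on the plus strand, that of its relative BHLHE41 is chr12:26125038-26125287 on the minus strand, that of PER1 is chr17:8152405-8152654 on the minus strand, and that of the second start of NR1D2 is chr3:23945871-23946120 on the plus strand.
BHLHE40: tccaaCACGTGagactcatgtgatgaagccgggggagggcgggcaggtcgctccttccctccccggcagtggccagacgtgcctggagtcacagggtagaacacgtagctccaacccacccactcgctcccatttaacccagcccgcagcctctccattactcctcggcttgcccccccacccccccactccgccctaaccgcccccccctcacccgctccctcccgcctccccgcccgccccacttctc
BHLHE41: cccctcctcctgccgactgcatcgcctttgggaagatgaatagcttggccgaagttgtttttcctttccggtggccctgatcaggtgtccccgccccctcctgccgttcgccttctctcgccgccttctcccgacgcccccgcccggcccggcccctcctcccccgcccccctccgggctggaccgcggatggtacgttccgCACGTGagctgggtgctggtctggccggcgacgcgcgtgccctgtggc
PER1: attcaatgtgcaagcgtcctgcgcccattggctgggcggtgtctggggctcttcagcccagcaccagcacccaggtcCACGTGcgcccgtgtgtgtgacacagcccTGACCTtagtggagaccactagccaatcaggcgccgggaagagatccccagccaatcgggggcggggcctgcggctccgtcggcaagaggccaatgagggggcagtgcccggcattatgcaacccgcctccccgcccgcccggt
NR1D2: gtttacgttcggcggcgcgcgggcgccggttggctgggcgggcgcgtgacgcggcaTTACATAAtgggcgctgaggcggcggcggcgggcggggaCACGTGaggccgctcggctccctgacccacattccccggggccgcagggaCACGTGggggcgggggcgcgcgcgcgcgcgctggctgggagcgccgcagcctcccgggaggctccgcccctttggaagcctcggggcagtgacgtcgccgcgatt

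In BHLHE40 the E-box lay 245 to 240 bases before the start, in BHLHE41 48 to 43 and in PER1 173 to 168. NR1D2 had a pair of them, at 155 to 150 and at 105 to 100 bases before its second start, and also a D-box, the element read by DBP, TEF, HLF and NFIL3. The PER1 window also held a nuclear receptor half-site. The search covered 5 motifs on both strands: the E-box CACGTG, the variant E-box CACGTT, the D-box TTATGTAA, the half-site AGGTCA and the cyclic AMP response element TGACGTCA. No 2 matches overlapped within a window.

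Over all 35116 windows of the same length, 6.34% held the E-box, 4.55% the variant, 0.834% the D-box, 12.1% the half-site and 1.65% the cyclic AMP element. Of the 14 windows, 4 held the E-box, 5 the variant, 2 the D-box, 3 the half-site and 0 the cyclic AMP element. The variant E-box stood in PER2, CRY1, CRY2, NR1D1 and CLOCK, so that 9 of the 10 genes had one form or the other. Genes with 2 starts had 2 windows in which to match. The share of all windows or genes with either form was not counted, so nothing is read from the 9 of 10. PER3 had a D-box at its first start instead. The BHLHE40 window, like that of BHLHE41, held an E-box and no other motif searched, unlike those of PER1 and the second start of NR1D2. A match is a description of letters and not a measured site.

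**Figure D1:**
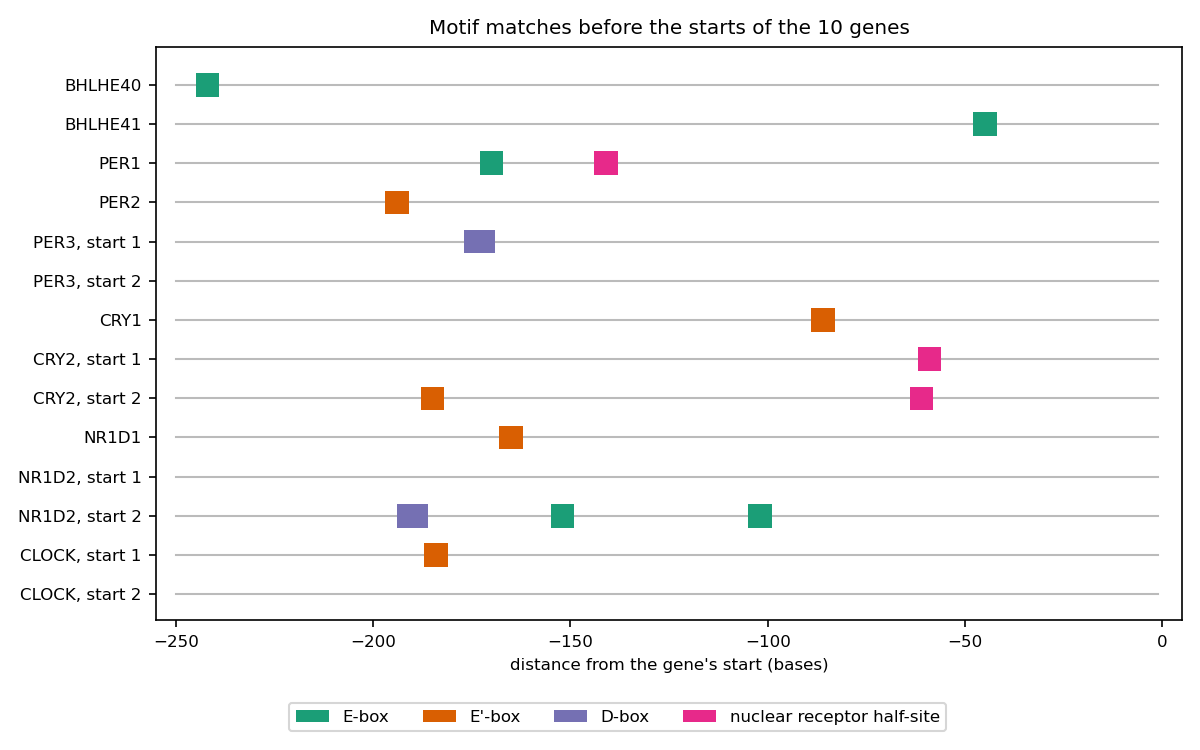
Motif matches in the 250 bases before each start, with the distance from the start in bases on the x axis and a line per window; coloured boxes mark the matches. The E-box stands in BHLHE40, BHLHE41, PER1 and the second start of NR1D2, and the windows of the second starts of PER3 and CLOCK and the first start of NR1D2 hold none of the 5 motifs.

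Before the results, 1 array must be named. The first principal component took up 31.6% of the variance, and CA replicate 3 lay at 33.8 on it, while the other arrays lay between -12.8 and 6.44. Array medians lay between 5.03 and 5.08 on the log2 scale. Of 8 measured myeloid markers 7 were at or above the median of all probe sets, among them FLT3, LYZ and CEBPA, and the monocyte marker CD14 was below it. The same held for 3 of 5 lymphocyte markers, for 3 of 3 from the erythroid and megakaryocyte lineages and for 2 of 5 from epithelium and fibroblasts, so a place above this median does not mark a cell type. CEBPA was itself called higher in CA, with mean log2 values of 11.81 in CA and 11.33 in DMSO (limma adjusted p = 0.0439); no other marker was called. The number of arrays limits the precision, and an exact permutation test of 1 gene with 3 against 3 samples cannot give a two-sided p under 0.1. Changes were therefore taken from a limma fit over all 54613 probe sets, and a probe set was called at a Benjamini-Hochberg adjusted p under 0.05.

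BHLHE40 rose in CA. At probe set 201170_s_at its log2 values were 9.60, 9.61 and 9.47 in CA, against 8.45, 8.39 and 8.32 in DMSO. All CA arrays lay more than 1 log2 unit above every DMSO array. The level was 9.56 ± 0.08 in CA and 8.38 ± 0.07 in DMSO (mean ± SD, n = 3 each), a log2 difference of 1.18 (95% interval 1.02 to 1.33), or 2.26-fold higher (2.02 to 2.52). It ranked 2 by log2 change among 54613 probe sets. BHLHE40 was put forward because of this rise, and the other 9 genes were listed with the results of the same comparison known, so the changes of all 10 are described here with no test of their own.

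The second BHLHE40 probe set, 201169_s_at, was close to the median of all probe sets, which was 5.05. The mean of this probe set was 5.38 in CA and 5.04 in DMSO, so in DMSO it lay under that median. Its log2 values were 5.64, 5.13 and 5.39 in CA, against 5.06, 5.04 and 5.01 in DMSO. The groups did not overlap here either, but the CA arrays were far apart and CA replicate 2 lay just above DMSO. The log2 difference was 0.35 (0.06 to 0.64) and was not past the threshold. Leaving out CA replicate 1 gave 0.22, and leaving out CA replicate 2 gave 0.48. The size of the rise thus differed between the probe sets of this gene, and the direction was the same. An antisense gene, BHLHE40-AS1, overlaps BHLHE40 in RefSeq and was not analysed here. ITPR1, the protein-coding neighbour on 1 side, had 5 probe sets with log2 changes from -0.16 to 0.33, none of which passed.

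Of the 27 probe sets, 1 was called, and it is 201170_s_at; over all probe sets 0.22% were called. Since the list was made with this comparison known, nothing is read from that count. The call rested on nearly all arrays. Without CA replicate 3 the log2 difference was 1.22 and was still called. Without CA replicate 1, CA replicate 2, DMSO replicate 1, DMSO replicate 2 or DMSO replicate 3 it lay between 1.14 and 1.21 and was not called, in fits that called 0 to 1 of all probe sets.

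**Figure D2:**
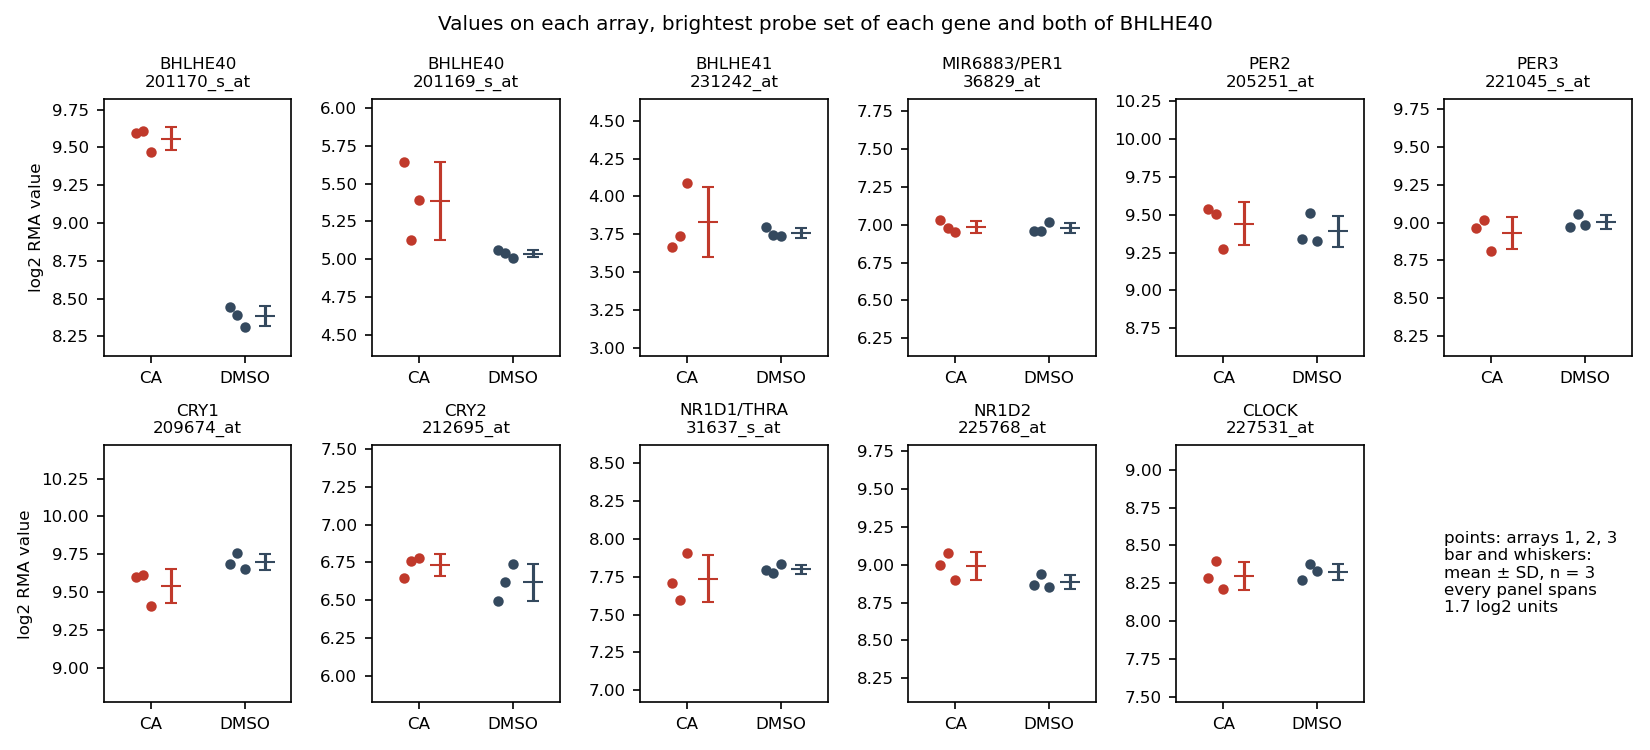
Log2 value on each array (points) with mean and SD (n = 3) for both probe sets of BHLHE40 and the brightest probe set of each other gene, CA on the left and DMSO on the right of every panel, each panel spanning the same number of log2 units. BHLHE40 at 201170_s_at, with means of 9.56 in CA and 8.38 in DMSO, is the panel in which the groups lie far apart.

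BHLHE41, the closest relative of BHLHE40, was dim on these arrays. Its 4 probe sets had mean log2 values between 2.91 and 3.83 in CA and between 2.87 and 3.76 in DMSO, all below the median of 5.05 over all probe sets. At the brightest, 231242_at, the values were 3.66, 3.74 and 4.09 in CA, against 3.80, 3.74 and 3.74 in DMSO. The groups overlapped at all 4, and the log2 changes ran from -0.16 to 0.07. Intervals reached from -0.40 to 0.35. The files hold no detection calls, so these values do not say whether the transcript was present.

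The PER genes encode the repressors of the main loop. PER2 at 205251_at had log2 values of 9.54, 9.51 and 9.28 in CA, against 9.34, 9.51 and 9.33 in DMSO, a difference of 0.05 (-0.17 to 0.26). The groups overlapped, and 1 DMSO array lay level with the middle CA array. PER3 at 221045_s_at had 8.96, 9.02 and 8.81 in CA, against 8.97, 9.06 and 8.99 in DMSO, a difference of -0.07 (-0.24 to 0.10). The other PER2 probe set and the 3 other PER3 probe sets were dim. Of these, PER3 1555131_a_at had all CA values (4.79, 4.76 and 4.75) below the DMSO values (4.85, 4.94 and 4.84), with a log2 difference of -0.11 (-0.24 to 0.02).

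All 4 probe sets that list PER1 also list MIR6883, a microRNA gene that lies inside PER1 in RefSeq, so the annotation does not assign them to PER1 alone. At the brightest, 36829_at, the log2 values were 7.03, 6.98 and 6.95 in CA, against 6.96, 6.96 and 7.02 in DMSO. The groups overlapped there and at the other 3. The log2 difference was 0.0091 (-0.12 to 0.14), the narrowest interval of all the member probe sets, and at 202861_at it was -0.04 (-0.18 to 0.09).

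The CRY genes encode the partners of PER in repression. CRY1 had 1 probe set, with log2 values of 9.60, 9.61 and 9.41 in CA, against 9.69, 9.76 and 9.66 in DMSO. The CA arrays all lay below the DMSO arrays, by a small step and with CA replicate 3 the lowest. The difference was -0.16 (-0.34 to 0.02) and was not past the threshold; without CA replicate 3 it was -0.09. CRY2 had 6.65, 6.76 and 6.78 in CA, against 6.49, 6.62 and 6.74 in DMSO, with overlapping groups and a difference of 0.11 (-0.08 to 0.30).

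NR1D1 and NR1D2 are the repressors of the second loop. The 3 probe sets that list NR1D1 also list THRA, the thyroid hormone receptor alpha gene that overlaps it in RefSeq. The annotation thus does not assign them to either gene alone. At the brightest, 31637_s_at, the log2 values were 7.71, 7.60 and 7.91 in CA, against 7.79, 7.78 and 7.83 in DMSO, a difference of -0.06 (-0.27 to 0.14). The CA arrays enclosed the DMSO arrays. NR1D2 at 225768_at had 9.00, 9.08 and 8.90 in CA, against 8.87, 8.94 and 8.85 in DMSO, a difference of 0.11 (-0.05 to 0.26). Its second probe set gave 0.07 (-0.12 to 0.27), and the groups overlapped at both.

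CLOCK, the activator, had 4 probe sets. At the brightest, 227531_at, the log2 values were 8.28, 8.40 and 8.21 in CA, against 8.27, 8.38 and 8.33 in DMSO, a difference of -0.03 (-0.19 to 0.14). At 225856_at they were 7.26, 7.24 and 7.11 in CA, against 7.37, 7.41 and 7.28 in DMSO. Only at the second of these did the groups not overlap, with a log2 difference of -0.15 (-0.31 to 0.01) that was not called and was -0.10 without CA replicate 3. The remaining 2 gave 0.0066 and -0.0996 with overlapping groups.

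Apart from BHLHE40, then, 0 of 25 probe sets were called in limma. Their log2 changes ran from -0.16 to 0.24, with a median of -0.03, and the median over all probe sets was -0.0011. By sign 12 were higher and 13 lower. Of the 25, 14 were not dim, and their 95% intervals together reached from -0.34 to 0.30, so at those probe sets a change as large as that of 201170_s_at lay outside every interval. The 11 dim ones reached further, up to 0.58 at NR1D1/THRA 217476_at. Of all 27 probe sets, 5 had groups that did not overlap, 2 with CA above DMSO, both of BHLHE40, and 3 with CA below DMSO (PER3, CRY1 and CLOCK); over all probe sets groups did not overlap at 15.5%. Without CA replicate 3 the changes of the 25 ran from -0.25 at BHLHE41 231243_s_at to 0.26 at NR1D1/THRA 217476_at. The change of 0.24 at 217476_at was 0.07 without DMSO replicate 3, whose value was the lowest.

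**Figure D3:**
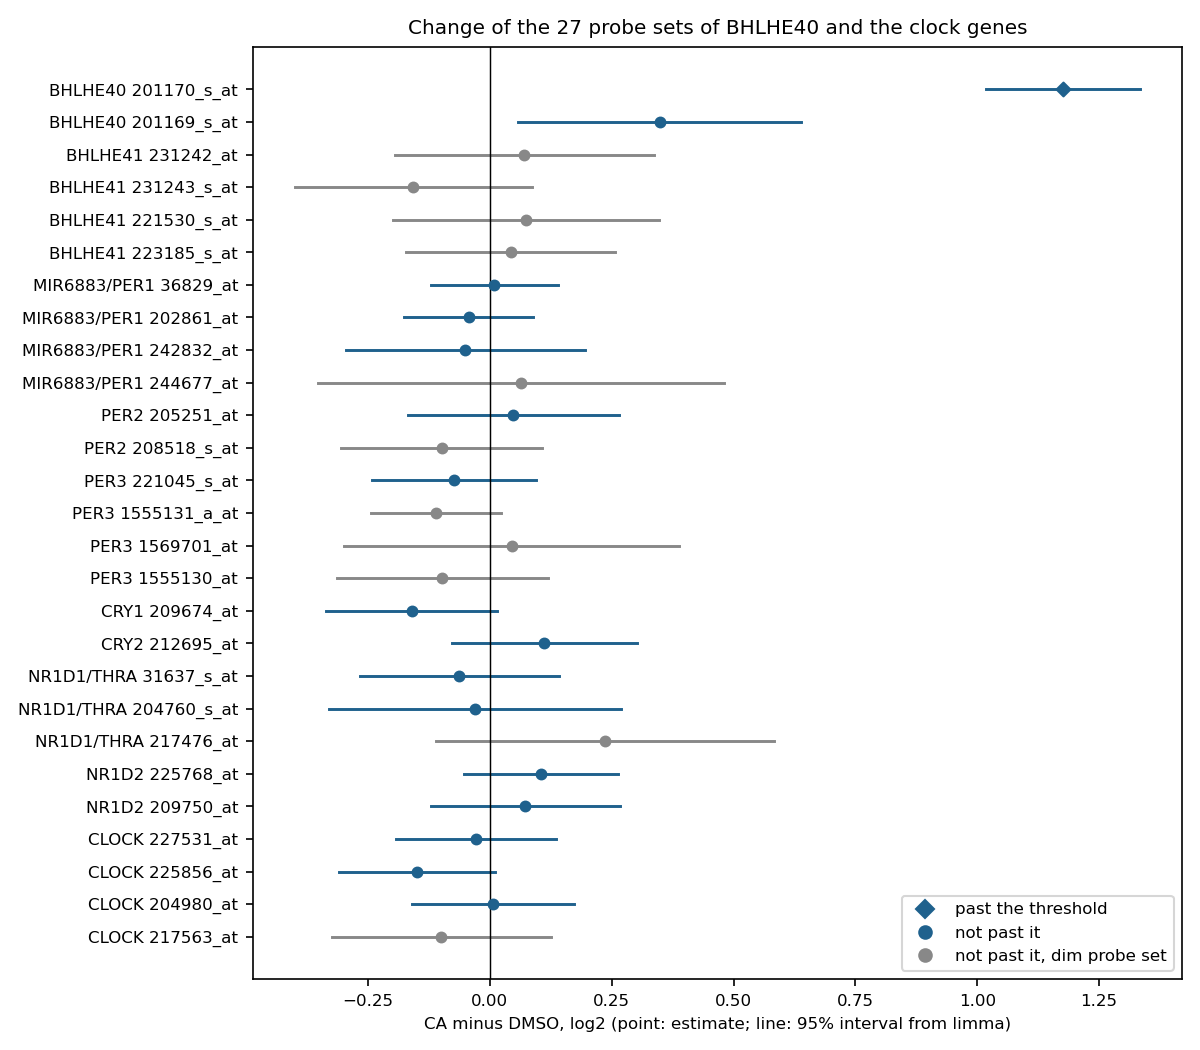
Log2 change, CA minus DMSO, of each of the 27 probe sets with its 95% interval from limma, grouped by gene; the diamond marks the called probe set and grey marks dim ones. BHLHE40 201170_s_at lies at 1.18 and the 25 probe sets of the other genes lie between -0.16 and 0.24.

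Other genes of the clock and its surroundings were taken from a list by role. The list had 53 genes, of which 48 had a probe set with 1 gene symbol, and the brightest such probe set was used. The other 5 were not analysed here. None of the 48 was called in limma; over the probe sets used of all genes 0.359% were called. At an unadjusted p under 0.05, 2 were higher and 3 lower (5.84% and 3.64% of all genes). The median log2 change was 0.0070, and 0.0037 over the probe sets used of all genes.

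Among the activators, BMAL1, the partner of CLOCK, had log2 values of 6.85, 6.84 and 6.59 in CA, against 6.92, 6.82 and 6.89 in DMSO, a log2 difference of -0.12 (limma adjusted p = 0.741), and its groups overlapped. NPAS2, which can stand in for CLOCK, had a log2 difference of 0.09 (adjusted p = 0.788). RORA and RORB, nuclear receptors of the family that opposes REV-ERB, had differences of 0.24 and -0.21 at dim probe sets (adjusted p = 0.615 and 0.581). RORB had 4.25, 4.06 and 4.32 in CA, against 4.34, 4.52 and 4.39 in DMSO, so its groups did not overlap, while those of RORA did. The D-box factors TEF and NFIL3, an activator and a repressor, had differences of -0.07 and 0.06 (adjusted p = 0.781 and 0.808).

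Genes whose products modify clock proteins gave no calls in limma either. Among 7 kinase genes the log2 changes ran from -0.13 for GSK3B (adjusted p = 0.640) to 0.07 for CSNK2B, a subunit of casein kinase 2 (adjusted p = 0.748). The other GSK3B probe sets that were not dim gave -0.07 and 0.0007. Among 5 genes of the ubiquitin pathway the changes ran from -0.09 for the deubiquitinase gene USP2 to 0.06 for FBXW11, a subunit of an E3 ligase (both adjusted p = 0.829). The other USP2 probe sets that were not dim gave 0.0015 and -0.06. The acetyltransferase gene EP300 had 9.05, 9.01 and 8.60 in CA, against 9.17, 9.23 and 9.11 in DMSO. CA lay below DMSO on every array, and CA replicate 3 was the lowest by far. The log2 difference was -0.28 (adjusted p = 0.584), and -0.14 without CA replicate 3; its other probe set gave -0.34. The deacetylase gene SIRT1 had a difference of -0.21 (adjusted p = 0.571), and -0.14 without that array. Among the outputs of the clock, PPARA and WEE1 had differences of -0.17 and -0.10 (adjusted p = 0.527 and 0.693). The other WEE1 probe set, which was not dim, gave 0.04. PPARA, a nuclear receptor of lipid metabolism, had 6.94, 6.87 and 6.99 in CA, against 7.03, 7.17 and 7.12 in DMSO, and its groups did not overlap. The limma fit across all probe sets gave it an unadjusted p of 0.0308. Its 3 other probe sets that were not dim gave log2 differences of -0.27, -0.26 and -0.17, none of them called.

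The lowest adjusted p of the list fell in the group of helix-loop-helix repressors and inhibitors related to BHLHE40. HES1, a repressor that is a known target of Notch signalling, had log2 values of 7.64, 7.58 and 7.36 in CA, against 7.12, 7.08 and 7.05 in DMSO. The groups did not overlap. The log2 difference was 0.44 (95% interval 0.25 to 0.64, limma adjusted p = 0.143), and a second probe set above the median gave 0.32, while the dim one that remains gave -0.03. ID2, a protein that binds helix-loop-helix factors and keeps them off DNA, had 10.40, 10.36 and 10.37 in CA, against 10.16, 10.14 and 10.05 in DMSO. These groups did not overlap either, and the difference was 0.26 (0.12 to 0.39, adjusted p = 0.236), with 0.24 at its other probe set. Both genes passed in a robust limma fit with an intensity trend (adjusted p = 0.0127 and 0.00387), a setting in which 2.25% of the probe sets used of all genes passed; over the other settings the adjusted p was 0.0542 to 0.483 for HES1 and 0.0571 to 0.591 for ID2. Of the 9 genes of the group, 2 had an unadjusted limma p under 0.05 in the upward direction and 1, the related inhibitor ID3, in the downward direction, with a log2 change of -0.30 (adjusted p = 0.554).

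**Figure D4:**
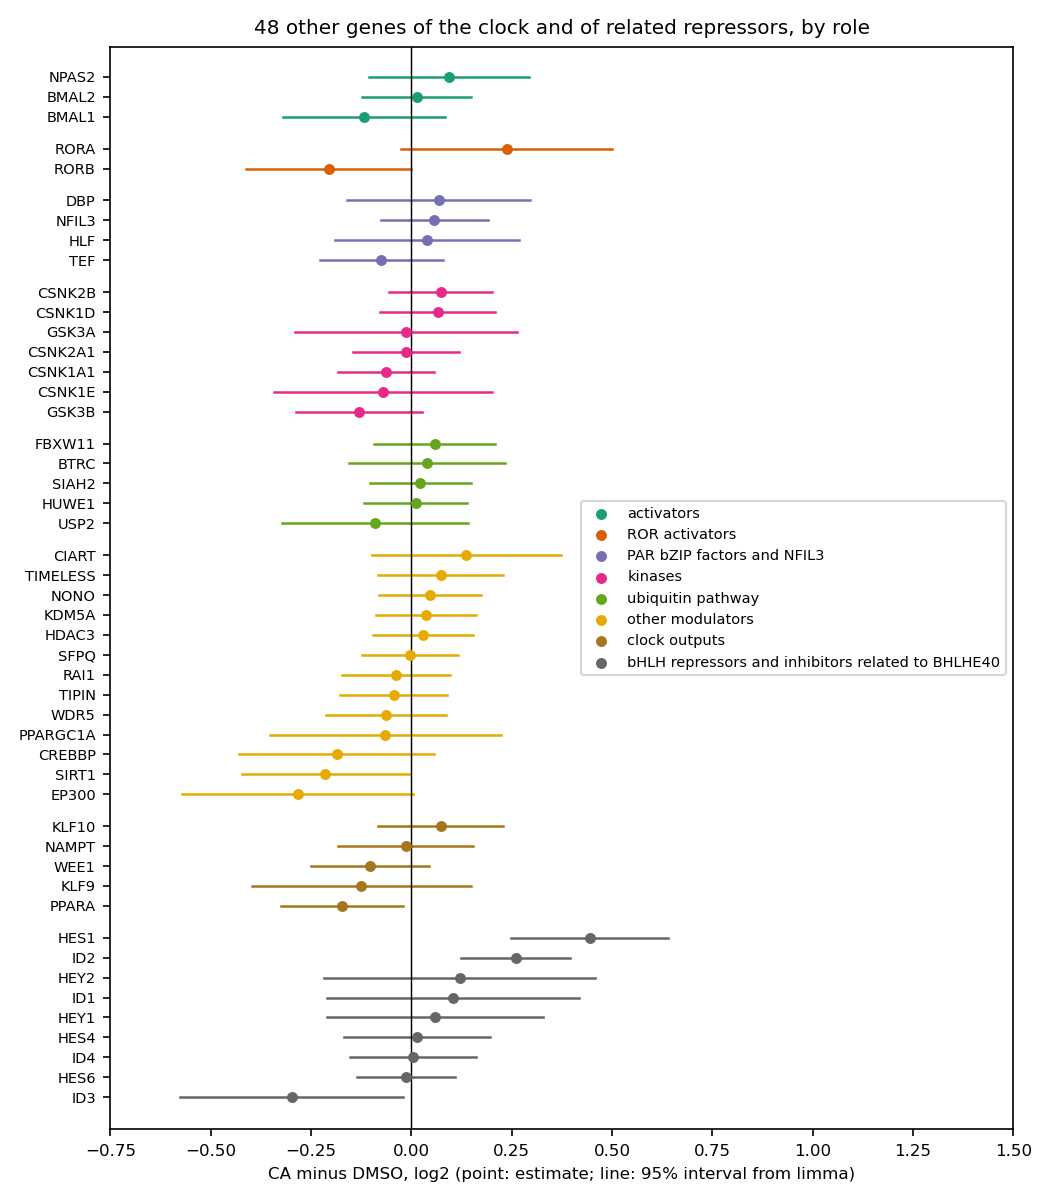
Log2 change, CA minus DMSO, of 48 further genes with 95% intervals from limma, sorted within each role and coloured by it. HES1 at 0.44 and ID2 at 0.26 are the highest of the list, and ID3 at -0.30 and EP300 at -0.28 are the lowest.

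The genes whose values over the 6 arrays were most like those of BHLHE40 at 201170_s_at were sought among 12509 genes whose probe set was not dim. Likeness was measured as Pearson's r over 6 arrays, which fall into the CA and DMSO groups, so r mostly reflects a step between groups that is large for its spread and takes no account of its size. The 5 highest were GPR183, an oxysterol receptor (r = 0.9991), LMO2, a transcriptional cofactor of blood stem cells (r = 0.9988), RXRA, the retinoid X receptor alpha (r = 0.9983), PTPRN2 (r = 0.9981) and FOXM1, a transcription factor of dividing cells (r = 0.9979). BHLHE40 and the clock genes described with it were left out of this search, so none of them could appear. None of the 5 is in the list of other clock genes by role. GPR183 had 11.02, 11.10 and 10.90 in CA, against 9.87, 9.86 and 9.77 in DMSO. In BHLHE40 and in all 5 genes the lowest CA value was that of CA replicate 3 and the lowest DMSO value that of DMSO replicate 3. The genes were picked by r over these same arrays, so nothing is read from this shared order. The log2 differences were 1.17 for GPR183, 0.51 for LMO2, 0.47 for RXRA, 0.35 for PTPRN2 and 0.21 for FOXM1, against 1.18 for BHLHE40. Of these 5, GPR183, LMO2 and RXRA were called in limma, and PTPRN2 and FOXM1 were not.

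**Figure D5:**
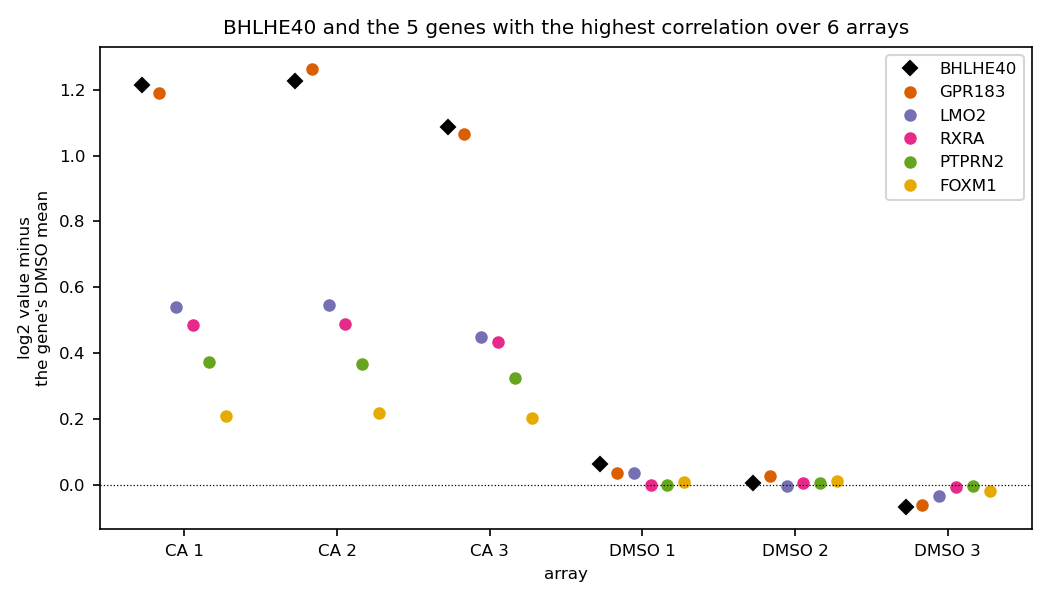
Log2 value on each array minus the DMSO mean of the same gene, for BHLHE40 (black diamonds) and the 5 genes with the highest Pearson r over 6 arrays. GPR183 follows BHLHE40 in size, with differences of 1.17 and 1.18, while LMO2, RXRA, PTPRN2 and FOXM1 follow it at 0.51, 0.47, 0.35 and 0.21.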

How the data were processed

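The table that the authors deposited gives log2 values for every probe set. Per the submitters' processing notes it was made with RMA in affy, of versions not given in the sources used here. RMA corrects background, normalises the arrays by quantiles and summarises the probes of a set, which compresses differences of dim genes and removes a shift shared by all. The values were used as deposited.

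The table held 54675 probe sets; 62 controls were left out. Of the other 54613, 41091 had 1 symbol in the platform annotation, 1801 several and 11721 none, and 41037 matched a gene table of GRCh38.p14 by gene number. Dim means a mean log2 value under 5.05, the median over all probe sets.

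Sample titles gave the groups. The two-sided test of CA against DMSO was limma 3.58.1 (R 4.3.3; lmFit and eBayes, without trend or block), p-values were adjusted by Benjamini-Hochberg over all probe sets, and the fit was checked on simulated data. Alternatives were 1 probe set per gene, no dim probe sets, trend and robust fit, replicate block, array weights, no _x_at, _s_at or _a_at probe sets, median centring, and leaving out each array. The members and lists were chosen with earlier results of these data known. Named were all member probe sets, called genes of the list, the 2 with the smallest p in each role, and the 5 genes most like BHLHE40; ID3 and the neighbouring genes were named after their values were seen. Promoter sequences are RefSeq's.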

Additional observations from a re-analysis of the deposited data

How the results depend on the processing

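The number of probe sets called, 120 in limma (116 higher, 4 lower), was 398 without dim probe sets, 740 in a robust fit with an intensity trend, 196 with array weights, 47 without _x_at, _s_at and _a_at probe sets and 1 with the replicate block, and 0 to 6 without any 1 array. With 1 probe set per gene it was 177, and 112 with median centring, which left 1 member called in each. The count of members called was 0 with the replicate block, where the log2 change of 1.18 at BHLHE40 201170_s_at was no longer called, and without these 3 kinds of probe set, which removes both BHLHE40 probe sets, and 0 to 1 without any 1 array. The replicate numbers share no stated pairing: deviations of same-numbered arrays correlated at 0.08, 0.19 and 0.26, and CA replicate 1 correlated no better with its own number. Of the pathway list 2 genes, HES1 and ID2, passed with trend and robust fit and 0 under each other setting. The cause of these moves was not tested. Signal over background is not in the files, so dim genes such as BHLHE41 cannot be judged for presence.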
